A study of Rattus norvegicus with 4 samples.

Results

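The 9 genes described here mark the endocrine cells of the islet other than beta cells: the hormone genes Gcg, Sst, Ppy, Pyy and Ghrl, and Ttr, Irx2, Hhex and Casr, which are enriched in alpha or delta cells. They were chosen as every non-control probe whose gene name in the scanner files is one of these symbols. This gave 12 probes for 9 of the 26456 genes or unnamed transcripts on the array. All 9 entered the test, which covered 20012 genes.

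The tissue was pancreatic islets of Sprague Dawley rat pups aged 14 postnatal days. Growth-restricted samples (IUGR, intrauterine growth restriction; 4 samples) were from offspring of dams whose uterine arteries were tied on both sides at embryonic day 18, and the 4 control samples from offspring of sham-operated dams. The cDNA amplified from total RNA was labelled with one of the dyes Cy3 and Cy5, and 1 IUGR and 1 control sample shared each of 4 arrays on 1 slide, with IUGR in Cy5 on arrays 1 and 2 and in Cy3 on arrays 3 and 4. Array 1 carried IUGR replicate 2 and control replicate 1, array 2 carried IUGR replicate 1 and control replicate 2, array 3 carried IUGR replicate 4 and control replicate 3, and array 4 carried IUGR replicate 3 and control replicate 4. The labels call the samples biological replicates and give neither the sex of the pups, nor the litters, nor the number of animals per sample. Uterine artery ligation is a surgical model of placental insufficiency, and the controls also underwent surgery.

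Islets hold several endocrine cell types around a majority of beta cells. Alpha cells release glucagon, which raises blood glucose; delta cells release somatostatin, which restrains insulin and glucagon release locally; PP cells release pancreatic polypeptide, and epsilon cells, most frequent around birth in rodents, release ghrelin. Peptide YY is made by several islet cell types early in life, and many of these hormones are cut from longer precursors at pairs of basic residues.

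Array 1 stood apart from the others. Its IUGR channel was the brighter, with a log2 ratio of median signals of 1.68, against -1.58, -2.42 and -1.55 on arrays 2 to 4. Across the 20012 tested genes, which are not independent replicates, its log2 ratios (IUGR over control) had correlations of 0.13, -0.23 and -0.30 with those of arrays 2, 3 and 4, whereas arrays 2, 3 and 4 correlated with each other at 0.37 to 0.63. Values without array 1 are given for every member below in 2 forms: the plain mean of the arrays left, and the fitted value, which gives both dye orientations equal weight and so counts the array left alone in its orientation as much as the other pair. With all 4 arrays the 2 forms are equal. All 12 member probes were well above background in all 8 channels and none was saturated. The hormone genes of alpha, delta, PP and epsilon cells were therefore detected in every sample. In RNA from whole islets, fewer cells of a type and less RNA per cell cannot be told apart.

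No member passed the test. The smallest p among the members was that of Ghrl, whose ratio was 0.512 (IUGR over control). Of 9 members, 0 were called by limma at a Benjamini-Hochberg adjusted p under 0.05, as were 0 of 20012 genes (0%), and 0 of the 12 probes were called among the 22967 that entered the probe-level fit (0%). Before adjustment 2735 genes had a p under 0.05. Lower in IUGR at that level were 4 members (Ghrl, Sst, Casr and Hhex), against 6.54% of all genes, and higher was 1 member (Ttr), against 7.13% of all genes. The mean log2 ratio was below 0 in 8 of 9 members, against 47% of all genes, and the median was -0.28 over the members and 0.014 over all genes.

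On each of the 4 arrays separately, 3 members (Sst, Ghrl and Hhex) lay below 0 every time, against 9.7% of all genes. Ttr was the 1 member above 0 on all 4, against 11% of all genes. With array 1 set aside, a count added after seeing the data, 7 of 9 members were below 0 on arrays 2, 3 and 4, against 25% of all genes. Gcg and Ttr were the exceptions, both positive on array 2. In 4 of 9 members (Gcg, Ppy, Pyy and Casr) the mean ratio had opposite signs in the 2 dye orientations, as it had in 39.4% of all genes.

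**Figure D1:**
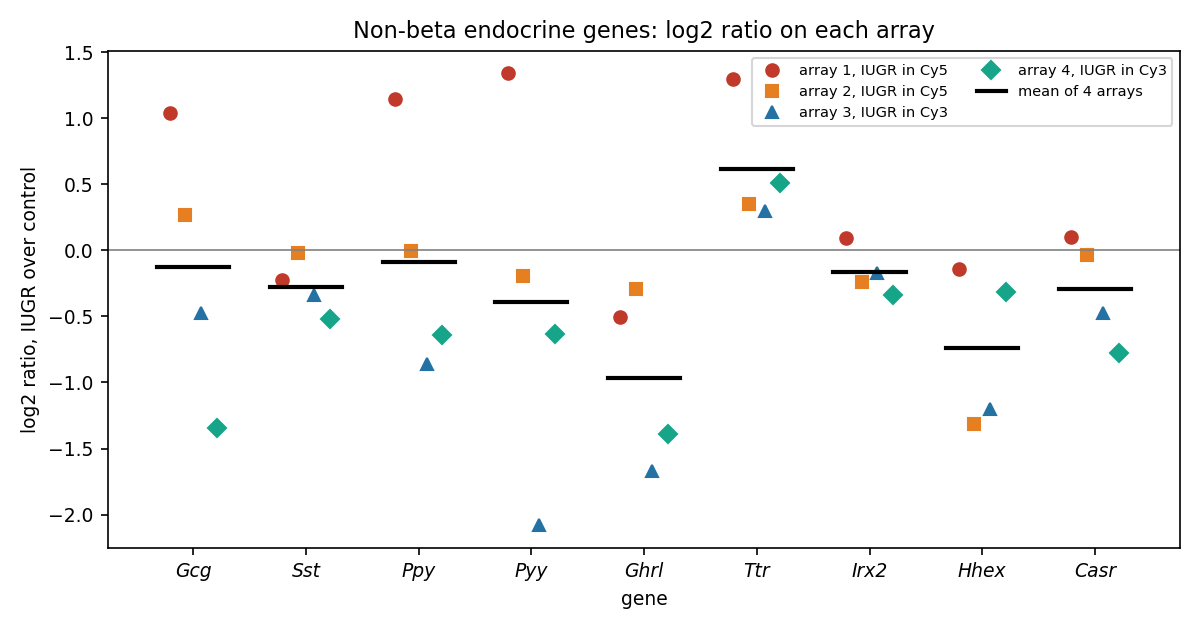
Log2 ratio (IUGR over control, vertical axis) of the 9 genes on each of the 4 arrays, with symbols for arrays and a bar for the mean. Ghrl lies between -1.67 and -0.29 and Ttr between 0.30 and 1.30, whereas Gcg, Ppy and Pyy cross 0.

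The probes of 4 hormones cut from larger precursors were read from the scanner files, which give positions on the rat assembly rn4. For Gcg and Ghrl the printed probe shows which part of the message the gene value reports. For Ppy and Pyy the printed probe is the dimmer of the pair, which does not stand for the gene. Shown 5′ to 3′ are those with an open sense frame and no AATAAA signal. Capitals mark the codons of a lysine-arginine pair in the Gcg probe, the cleavage site that precedes glucagon in proglucagon. The other probes were not searched for pairs of basic residues.
Gcg: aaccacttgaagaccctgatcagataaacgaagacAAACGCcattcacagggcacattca
Ppy: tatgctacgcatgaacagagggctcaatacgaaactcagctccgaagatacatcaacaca
Pyy: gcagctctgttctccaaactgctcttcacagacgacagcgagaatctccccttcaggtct
Ghrl: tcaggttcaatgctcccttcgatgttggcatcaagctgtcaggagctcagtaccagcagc
The Gcg probe lies at chr3:44436079-44436138 on the minus strand, and the pair takes its bases 36 to 41. The Ppy probe lies at chr10:91168488-91168547 and the Pyy probe at chr10:91174648-91174707, both on the minus strand. The Ghrl probe spans chr4:149623700-149625652 on the minus strand, 1953 bases of genome for 60 bases of probe, so it crosses at least 1 intron. Among member probes of different genes the longest shared run was 9 bases (Ghrl and Ppy), so no member probe carried a long stretch of another member. The other probes of Ppy (chr10:91167958-91168017) and Pyy (chr10:91174366-91174425), which are the brighter ones, and the Sst probe (chr11:79126157-79126216, plus strand) hold AATAAA on the sense strand, a usual signal for 3′ end formation. That motif was in 3 of 12 member probes, and in 8.4% of all 30367 probes searched on that strand.

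Ghrl encodes preproghrelin, the precursor of the epsilon-cell hormone ghrelin. Its normalized log2 intensity was 12.63, 12.13, 11.40 and 10.98 in IUGR replicates 1 to 4, against 12.63, 12.92, 12.65 and 12.79 in control replicates 1 to 4. Before rounding, all 4 IUGR samples lay below all 4 control samples, with IUGR replicate 1 next to control replicate 1. This separation was seen for 1 of 9 members and for 1.61% of all genes, and the reverse separation for 0 members and 1.37% of all genes.

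On arrays 1 to 4 the Ghrl log2 ratio was -0.50, -0.29, -1.67 and -1.39, with an SD over arrays of 0.67. Its mean was -0.97 ± 0.093 (moderated SE of limma with the dye difference taken out, n = 4), with an unadjusted p of 1.9e-04, rank 7 of 20012 genes, and a limma adjusted p of 0.339. Ghrl was measured by 10 spots per array, whose SD was between 0.027 and 0.038, much smaller than the spread between arrays. The difference was larger with IUGR in Cy3, with a mean of -1.53, than with IUGR in Cy5, with a mean of -0.40. The dye term takes up this gap between orientations, so the moderated SE and limma p of Ghrl do not count it as spread. The plain mean of Ghrl was -1.12 and the fitted value -0.91 without array 1.

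Gcg, the alpha-cell hormone gene, gave log2 ratios of 1.04, 0.27, -0.48 and -1.34 on arrays 1 to 4. Its mean was -0.13 ± 0.20 (moderated SE, n = 4; SD over arrays 1.02), with a limma adjusted p of 0.728. Positive ratios stood on the arrays with IUGR in Cy5 and negative ones on those with IUGR in Cy3, so the sign followed the dye. Its levels were 17.32, 17.42, 16.23 and 16.72 in IUGR replicates 1 to 4, against 16.38, 17.05, 17.20 and 17.57 in control replicates 1 to 4, and the groups overlapped. The single Gcg spot had an outlying local background on 3 arrays, where the median background of the channel was used. Without array 1 the plain mean of Gcg was -0.52 and the fitted value -0.32. Without array 2 the plain mean was -0.26 and the fitted value 0.066, and without array 4 they were 0.28 and 0.089, so the sign of Gcg depended on the array and on the weighting.

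Sst encodes somatostatin, the delta-cell hormone. Its level was 16.15, 15.65, 15.59 and 15.71 in IUGR replicates 1 to 4, against 15.88, 16.17, 16.04 and 16.10 in control replicates 1 to 4. Of the IUGR samples, 3 lay below all control samples, and replicate 1 lay among them. The log2 ratio was -0.23, -0.020, -0.34 and -0.52 on arrays 1 to 4, the narrowest spread of the hormone genes (SD 0.21). The mean was -0.28 ± 0.086 (moderated SE, n = 4), a ratio of 0.826, with an unadjusted p of 0.0258 and a limma adjusted p of 0.339. The plain mean of Sst was -0.29 and the fitted value -0.22 without array 1.

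Ppy encodes pancreatic polypeptide and is measured by a pair of probes. The brighter probe, which stands for the gene, gave 1.14, -0.0034, -0.86 and -0.64 on arrays 1 to 4, with a mean of -0.09 ± 0.20 (moderated SE, n = 4; SD 0.90) and a limma adjusted p of 0.816. The probe printed above gave 1.02, -0.11, -0.36 and -0.37, with a mean of 0.047. The probes shared their sign on all 4 arrays and differed by at most 0.50, so the spread between arrays was seen by both. Levels of the brighter probe were 16.99, 16.73, 16.44 and 16.07 in IUGR replicates 1 to 4, against 15.59, 16.99, 16.93 and 17.08 in control replicates 1 to 4, with control replicate 1 the lowest of all 8 samples. Without array 1, which held that control sample, the plain mean of Ppy was -0.50 and the fitted value -0.38. Without array 2 they were -0.12 and 0.20, while they were 0.17 and -0.034 without array 3 and 0.095 and -0.14 without array 4, so the sign of Ppy also depended on both.

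Pyy encodes peptide YY, of the same peptide family as pancreatic polypeptide. Its brighter probe gave 1.34, -0.20, -2.08 and -0.63 on arrays 1 to 4, with a mean of -0.39 ± 0.35 (moderated SE, n = 4; SD 1.41) and a limma adjusted p of 0.536. The probe printed above gave 0.97, -0.22, -1.48 and -0.29, with a mean of -0.25. Both probes were positive on array 1 and negative on the others, and they differed by at most 0.60. The levels of the brighter probe, 16.53, 16.64, 15.69 and 14.76 in IUGR replicates 1 to 4, against 15.30, 16.73, 16.84 and 16.32 in control replicates 1 to 4, overlapped. Pyy had the widest spread over arrays of the 9 members. Without array 1 the plain mean of Pyy was -0.97 and the fitted value -0.78. They were -0.46 and -0.0084 without array 2, and 0.17 and -0.030 without array 3.

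**Figure D2:**
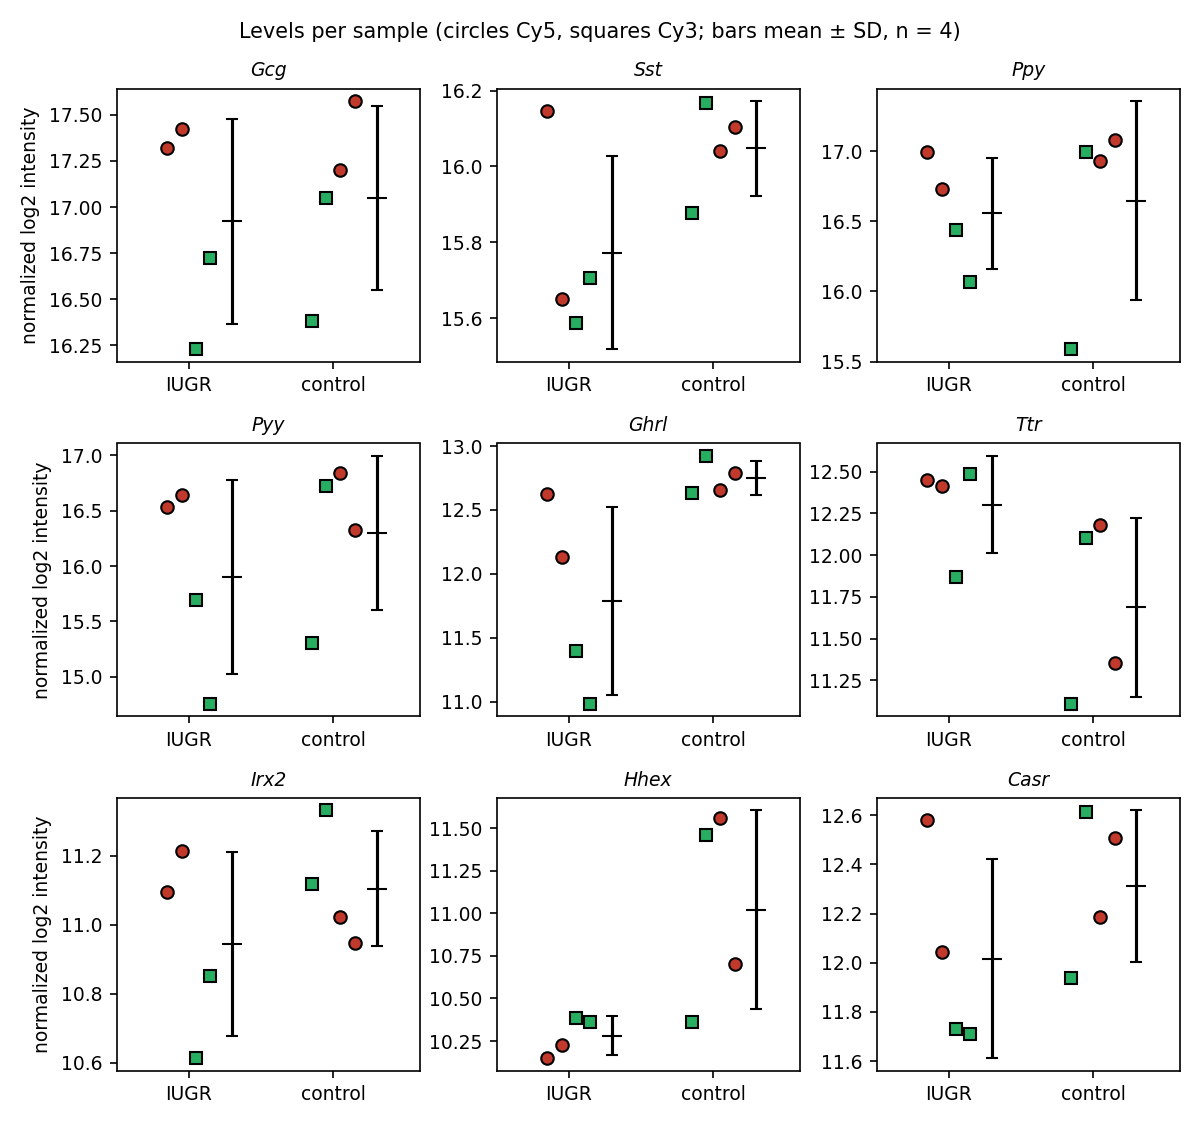
Normalized log2 intensity of each sample for the 9 genes, IUGR left and control right, with circles for Cy5, squares for Cy3 and bars for the mean ± SD (n = 4). The 4 IUGR samples lie below the 4 control samples for Ghrl, with the nearest pair both at 12.63, and the groups overlap for the other 8 genes.

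Hormone ratios were also set against those of the insulin genes Ins1 and Ins2 on the same array, since beta cells make up most of the islet. The mean log2 ratio of the insulin genes was 1.16, 1.70, -1.01 and -0.84 on arrays 1 to 4, positive with IUGR in Cy5 and negative with IUGR in Cy3. Outlying local backgrounds were replaced by the median in 32 spot readings of Ins1, which had 10 spots per array. The same was done in 2 readings of Ins2, which had 1 spot per array. Ghrl minus the insulin genes was -1.66, -1.999, -0.66 and -0.55, below 0 on 4 of 4 arrays, with a mean of -1.22 ± 0.72 (SD, n = 4). The exact two-sided sign-flip permutation test gave p = 0.125, the smallest it can give with 4 arrays, and 0.625 after Benjamini-Hochberg adjustment over 5 hormones. On arrays 1 and 2 the Ghrl ratio itself was -0.50 and -0.29, so most of the difference there came from the insulin genes.

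The other hormones did not keep 1 sign against insulin. Sst minus the insulin genes was -1.39, -1.72, 0.67 and 0.32, with a mean of -0.53 ± 1.20 (SD, n = 4), and its sign followed the dye. Gcg minus the insulin genes was -0.12, -1.44, 0.53 and -0.50, with a mean of -0.38 ± 0.82 (SD, n = 4). Ppy and Pyy minus the insulin genes had means of -0.34 ± 0.92 and -0.65 ± 1.03 (SD, n = 4), each below 0 on 2 of 4 arrays. Exact permutation p-values were 0.875 for Ppy and 0.5 for the other 3, with adjusted values of 0.875 and 0.625. Array 2 had the lowest difference for all 5 hormones, and without it the Ppy mean was 0.11. The insulin mean subtracted from all 5 was highest on array 2 (1.70), whereas each hormone's own ratio was lowest on array 3 or 4.

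**Figure D3:**
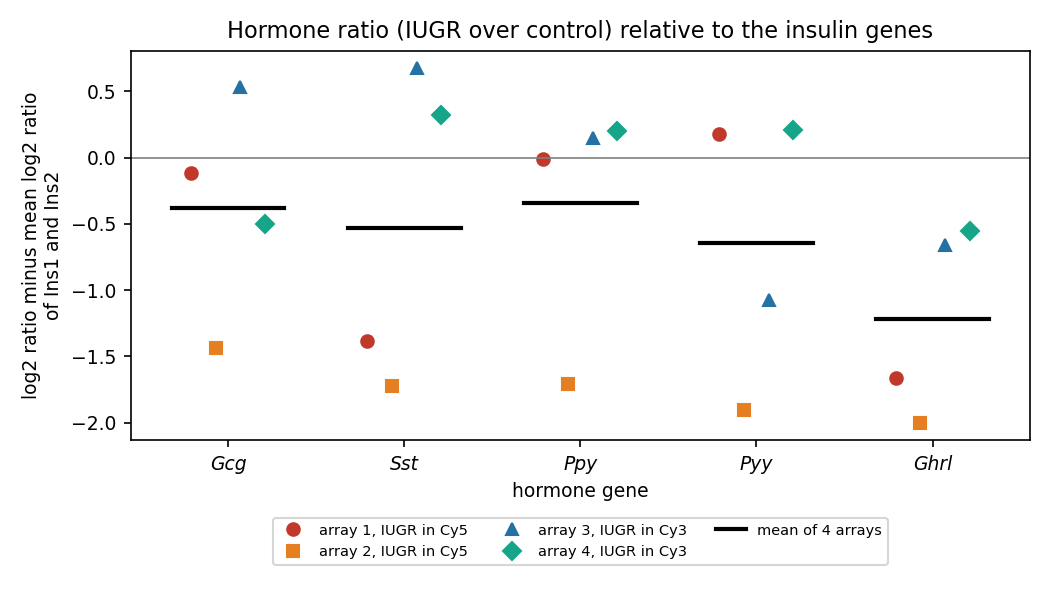
Log2 ratio (IUGR over control) of each hormone gene minus the mean log2 ratio of Ins1 and Ins2 on the same array, with the mean over 4 arrays as a bar. Ghrl is below 0 on every array. Array 2, where the insulin mean subtracted from all 5 genes was highest, is the lowest point for each of them.

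Ttr encodes transthyretin, a thyroxine and retinol carrier that is abundant in alpha cells as well as in liver. It was measured at chr18:12413621-12413680. Its level was 12.45, 12.41, 11.87 and 12.48 in IUGR replicates 1 to 4, against 11.11, 12.10, 12.18 and 11.36 in control replicates 1 to 4. Of the IUGR samples, 3 lay above all control samples and replicate 3 lay among them. The log2 ratio was 1.30, 0.35, 0.30 and 0.51 on arrays 1 to 4. The mean was 0.61 ± 0.17 (moderated SE, n = 4; SD 0.47), a ratio of 1.53, with an unadjusted p of 0.0183 and a limma adjusted p of 0.339. Without array 1, the array with the largest ratio, the plain mean of Ttr was 0.39 and the fitted value 0.38.

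The direction of Ttr was not shared by Gcg on arrays 3 and 4, where Gcg was below 0. The 5 liver markers averaged 0.19, 1.16, -1.32 and -0.17 on arrays 1 to 4, with 3 of 5 above 0 in the mean. All 5 were well above background in at least 1 channel. Their part in the Ttr ratio was not tested. Summed over the list, the liver markers ranged from 11.38 to 12.60 in IUGR samples, against 10.99 to 13.10 in control samples (log2 of summed intensity).

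Irx2 encodes a homeodomain transcription factor that marks alpha cells in the mouse and human islet. Its brighter probe, at chr17:744212-744271, gave 0.095, -0.24, -0.17 and -0.33 on arrays 1 to 4, with a mean of -0.16 ± 0.095 (moderated SE, n = 4; SD 0.18) and a limma adjusted p of 0.386. The second probe, at chr17:746787-746846, had a mean of 0.062, and the pair differed by at most 0.32. The signs of the pair differed on arrays 2 and 3, where the second probe gave 0.059 and 0.15. The signal of the second probe above background was 14 to 112 across samples, against 686 to 7335 for the brighter probe. Signals that low are of the size of the offset of 50 used in background correction, so the second probe is a weak check on the brighter one. The levels of the brighter probe were 11.10, 11.21, 10.61 and 10.85 in IUGR replicates 1 to 4, against 11.12, 11.33, 11.02 and 10.95 in control replicates 1 to 4, and they overlapped. The plain mean of Irx2 was -0.25 and the fitted value -0.24 without array 1.

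Hhex encodes the homeodomain factor that maintains delta-cell identity in the mouse. It was measured at chr1:241741934-241741993. Its level was 10.15, 10.22, 10.39 and 10.36 in IUGR replicates 1 to 4, against 10.36, 11.46, 11.56 and 10.71 in control replicates 1 to 4. The IUGR samples lay within a narrow band (SD 0.11) and the control samples did not (SD 0.58), and control replicate 1 lay among the IUGR samples. The log2 ratio was -0.14, -1.31, -1.20 and -0.32 on arrays 1 to 4. The mean was -0.74 ± 0.25 (moderated SE, n = 4; SD 0.60), a ratio of 0.598, with an unadjusted p of 0.0328 and a limma adjusted p of 0.339. Without array 1 the plain mean of Hhex was -0.94 and the fitted value -1.04, and without array 2 they were -0.55 and -0.45. Unlike Gcg, the mean did not change sign with the dye, at -0.72 with IUGR in Cy5 and -0.76 with IUGR in Cy3.

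Casr encodes the calcium-sensing receptor, a G-protein-coupled receptor present on islet cells including delta cells. It was measured at chr11:66084185-66084244. Its level was 12.58, 12.04, 11.73 and 11.71 in IUGR replicates 1 to 4, against 11.94, 12.61, 12.19 and 12.51 in control replicates 1 to 4, and the groups overlapped. The log2 ratio was 0.10, -0.035, -0.47 and -0.77 on arrays 1 to 4. The mean was -0.29 ± 0.091 (moderated SE, n = 4; SD 0.40), a ratio of 0.815, with an unadjusted p of 0.0246 and a limma adjusted p of 0.339. The mean Casr log2 ratio was 0.034 with IUGR in Cy5 and -0.62 with IUGR in Cy3, so its sign changed with the dye. The plain mean of Casr was -0.43 and the fitted value -0.33 without array 1.

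Lists of other genes of the same cells and of their hormone pathways were also counted; limma called 0 of their genes. Of 10 further alpha-cell genes, 5 were below and 5 above 0 in the mean. Among them Tm4sf4, a membrane protein, was at -0.32 ± 0.13 (limma adjusted p 0.339; moderated SE, n = 4, here and in the lists that follow). Of 5 further delta-cell genes, 3 were below and 2 above 0, with Bche at -0.22 ± 0.079. Of 4 further PP- and epsilon-cell genes, 2 lay on either side, and the smallest p were those of Spink3 at 0.64 ± 0.22 and Acsl1 at 0.22 ± 0.087. Mboat4, which encodes the enzyme that acylates ghrelin, had a log2 ratio of -0.19 ± 0.10 (limma adjusted p 0.362), with array values of 0.34, -0.10, -0.56 and -0.45. Unlike Ghrl, it was above 0 on array 1.

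Of 12 tested receptors of the islet hormones, 5 were below and 7 above 0. The receptors with the smallest p were Glp1r, for GLP-1, at 0.35 ± 0.11 and Sstr1, a somatostatin receptor, at -0.37 ± 0.11. Of 8 prohormone processing genes, 5 were above 0, and the smallest p were those of Pcsk1n at 0.55 ± 0.19 and Pcsk2, the convertase that makes glucagon, at 0.43 ± 0.15. Of 7 granule genes, 4 were above 0; the smallest p were those of Vgf at 0.31 ± 0.12 and Syp at 0.22 ± 0.093. Of 13 endocrine transcription factors, 7 were above 0, with Neurod1 at -0.22 ± 0.082. The limma adjusted p of each of these genes was 0.339.

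Markers of other cells also differed between arrays, in directions that varied by list, and limma called 0 of them. The 5 T-cell markers averaged 0.043, -0.46, -1.86 and -0.95 on arrays 1 to 4, and 5 of 5 were lower in IUGR at an unadjusted p under 0.05. Their summed level lay between 9.38 and 9.72 in IUGR samples, against 9.34 and 12.18 in control samples. The 4 B-cell markers averaged 0.0007, -0.29, -1.25 and -0.87, and their summed level lay between 8.87 and 9.84 in IUGR samples, against 8.87 and 11.05 in control samples. The 5 gut markers, of interest because Ghrl and Pyy are also hormone genes of the gut, averaged -0.049, 0.40, -0.73 and 0.0062. On array 3 Lgals4 was at -3.20 and Cdx2 at -1.47, while Cdx1 was at 0.70, Vil1 at 0.22 and Gast at 0.095. The summed level of the 5 gut markers lay between 12.73 and 13.40 in IUGR samples, against 12.61 and 12.75 in control samples. Ghrl, Pyy, Ppy and Ttr had their lowest ratio on array 3, as did the means of the T-cell, B-cell, gut, liver and Schwann-cell lists. The Schwann-cell mean of -0.49 on array 3 was close to its -0.47 on array 1. The 4 red-cell markers averaged -0.44, 0.26, 1.34 and 1.02, with summed levels of 17.02 to 18.48 in IUGR samples, against 17.16 to 17.55 in control samples. The 9 acinar markers averaged 0.47, 0.076, 1.80 and -0.36, with summed levels of 19.21 to 20.50 in IUGR samples, against 18.80 to 20.06 in control samples. The mean log2 ratio was above 0 for 7 of 7 beta-cell and 6 of 6 endothelial markers and below 0 for 5 of 6 duct markers. None of these lists had a marker that was below background in all 8 channels. Their part in the member ratios was not tested.

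The genes whose 4 array ratios lay nearest to each hormone, by Euclidean distance among 13056 genes with a symbol, were Kcnq3 (0.51), Birc3 (0.65) and Capn13 (0.66) for Ghrl. For Gcg they were Ccl2 (0.28), Ccl7 (0.55) and Mis18a (0.58), and for Sst they were Tor3a (0.18), Tmprss8 (0.20) and Col11a2 (0.20). For Ppy they were S100a3 (0.37), Scara3 (0.46) and Cox8b (0.46), and for Pyy they were Ms4a6b (0.84), Gpr183 (0.96) and Gpr34 (1.01). With 4 arrays such distances describe these arrays alone, and no test was made on them.

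**Figure D4:**
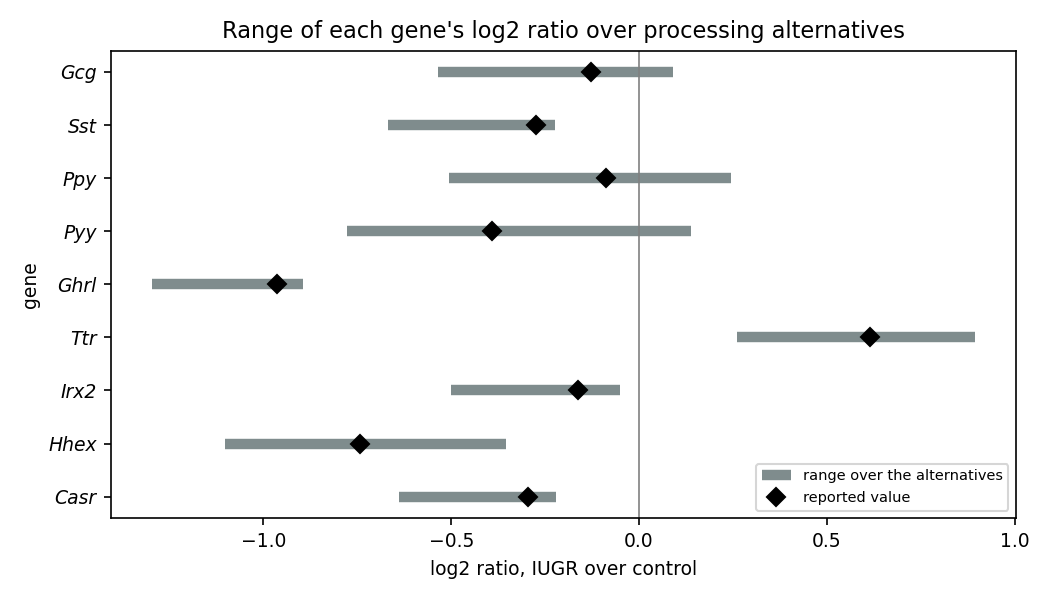
Reported log2 ratio (diamond) of each gene and its range over the processing alternatives (bar), IUGR over control. Sst, Ghrl, Irx2, Hhex and Casr stay below 0 and Ttr above 0, while the bars of Gcg, Ppy and Pyy cross 0.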

How the data were processed

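Values were measured on 4 arrays of 42877 non-control spots (30367 probes). Per the file headers, the authors extracted them with Agilent Feature Extraction 10.10.1.1 (protocol GE2_1010_Sep10) and gave probe positions on rn4. The deposited mean signals and local backgrounds are intensity values, the deposited processed ratio is the log10 of Cy5 over Cy3, and the deposited value table holds log2 ratios per spot. The submitters' processing notes name limma without settings. Set against the scanner values in spot order, the table correlated at 0.988 to 0.998 with loess ratios of Cy5 over Cy3 without background subtraction (medians -0.029 to 0.008).

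In R 4.3.3 with limma 3.58.1, background was corrected by normexp (offset 50), spots with outlying local background were given the median of their array and channel, arrays were normalized by loess, and feature-outlier spots were dropped and repeat spots averaged. Genes well above background in at least 2 of 4 channels of either group were tested, with the brightest probe standing for a gene. The model held IUGR over control and a dye term (2 residual and 2.76 prior degrees of freedom), with Benjamini-Hochberg adjustment over 20012 genes at 0.05. Sample levels are loess values scaled between arrays on mean intensity. The insulin differences used an exact sign-flip test over arrays. The named genes are the 9 members, from each list any called gene or the 2 with the smallest p, and the 3 nearest genes per hormone; some genes that this rule takes from the lists are not reported here. Mboat4 was named after its values were seen. The members and lists were chosen with earlier results of these data known. Of the 12 member probes, 12 matched RefSeq by accession (GRCr8, names only). The number of arrays limits the precision. The fit was tested on simulated data with known changes. Levels of different probes are not compared. Whether the labelled replicates come from separate litters is not given, so p-values speak for these samples alone. The limma p-values measure the spread between arrays left within a dye orientation, because the dye term takes up the difference between orientations. The sign-flip p-values use the array values without a dye term.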

Additional observations from a re-analysis of the deposited data

Results flagged for a closer look

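Ppy minus the insulin genes was -1.71 on array 2, against -0.014, 0.15 and 0.20 on arrays 1, 3 and 4, which marked array 2 as a sample far from the others. Of 14 sets of 4 array values examined this way it was the 1 found, and chance marks about 1 in 20 such sets. On array 2 the insulin genes had their highest mean log2 ratio (1.70), while Ppy itself was at -0.0034.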

How the results depend on the processing

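Over the alternatives run, plain means without each array included, Sst, Ghrl, Irx2, Hhex and Casr kept a mean below 0 and Ttr a mean above 0. Of the 9 members, 0 were called at an adjusted p under 0.05 in all settings except the replicate block. The number of genes called was 15, all lower, with median centring in place of loess, and 14 (12 lower, 2 higher) with channel brightness as a covariate; the cause was not tested. With median centring the member values were -0.54 for Gcg, -0.67 for Sst, -0.50 for Ppy, -0.78 for Pyy, -1.30 for Ghrl, 0.26 for Ttr, -0.50 for Irx2, -1.10 for Hhex and -0.64 for Casr, while the median of all genes was at -0.048. With channel brightness as a covariate, Gcg was at 0.023, Ppy at 0.24, Pyy at 0.14, Irx2 at -0.082 and Hhex at -0.35, and the smallest adjusted p of a member was 0.0553. Leaving out spots with outlying backgrounds removed the brighter Ppy probe. The dimmer probe, at 0.047 in the main fit, then stood for Ppy, which was at 0.053. Gcg and the insulin differences were left without a value. Averaging the probes of a gene gave -0.021 for Ppy and -0.050 for Irx2, whose dim second probe then counts as much as the brighter one. Leaving out 1 array at a time, the fitted value, which weights both dye orientations equally, ranged from -0.34 to 0.089 for Gcg and from -0.38 to 0.20 for Ppy. The plain mean of the 3 arrays left, added after seeing the data, ranged from -0.52 to 0.28 for Gcg, from -0.50 to 0.17 for Ppy and from -0.97 to 0.17 for Pyy. Ppy minus the insulin genes, a plain mean throughout, ranged from -0.52 to 0.11. With these omissions 474 (array 3) to 6206 (array 1) genes had an unadjusted p under 0.05, against 2735, with 939 without array 2 and 0 called each time.

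The replicate block (a separate-channel fit with the replicate number) called 2668 genes (1129 lower, 1539 higher) and 2 members, Ghrl (adjusted p 0.0137) and Hhex (0.0252). Group, dye and number together use up every degree of freedom of the within-array ratios, so the intraspot correlation (0.528) was borrowed from the fit without the number and the spread came from the channel averages alone. Same-numbered samples correlated at -0.29 to 0.12, and 0 of 4 correlated best with their own number. Same-numbered samples never shared an array and carried opposite dyes, so these correlations cannot decide whether the numbers pair the samples. The same fit without the number, chosen after seeing the data, called 0 genes, with 5628 at an unadjusted p under 0.05. For Ghrl the adjusted p ranged from 0.0137 to 0.952 over the alternatives.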
